A study of Mus musculus with 12 samples.

Results

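Cd27 and 9 genes of the interferon-gamma and cytotoxic lineage (Ifng, Tbx21, Eomes, Gzmb, Nkg7, Klrd1, Ccl5, Xcl1 and Cxcr3) were followed by symbol in 3' RNA-seq libraries of gamma delta T cells bearing Vg4 and Vd4 chains. All 10 had a line among the 45796 genes of the table. The cells came from lymph nodes that drain the skin of C57BL/6 mice, and 4 groups of 3 libraries were compared. These were NF-kB1-deficient mice given imiquimod cream, wild-type mice given imiquimod cream, NF-kB1-deficient mice given sham cream and wild-type mice given sham cream. Imiquimod activates a Toll-like receptor and inflames mouse skin, and NF-kB1 belongs to the NF-kB family of transcription factors. The sources used here do not give the dose, the days of treatment, the ages, the kind of NF-kB1 allele or the number of mice behind a library, and no Cre or cell type is named for the deficiency. P-values therefore measure the spread between these libraries, which may be technical.

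CD27 is a costimulatory receptor of the tumour necrosis factor receptor family, and its ligand is CD70. Among mouse gamma delta T cells it marks those poised to make interferon-gamma, while cells without CD27 include the makers of IL-17. T-bet and Eomes are the T-box transcription factors of type 1 lymphocytes, which make interferon-gamma, kill through granzymes and follow or release chemokines of inflamed tissue.

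Depth was low, with an estimated 20507 to 69454 reads on genes per library (median 35383). Values are linear normalized values, on which 1 read was worth 0.488 to 1.98. The deposited table holds nothing between 0 and 1, so a listed 0 may hide a read in libraries where 1 read is worth less than 1. In wild-type sham replicate 2, where 1 read was worth 0.488, a listed 0 may hide 2 reads. Gapdh, a gene of every cell, was listed at 0 in 5 of 12 libraries, while Actb ran from 97.0 to 213. The 3 wild-type imiquimod libraries had the highest summed values of all, at 36846, 37487 and 40618, against 31878 to 34855 in the other 9. Of the 14 markers of gamma delta T cells, 10 had a line, and Tcrd was at 14.2 to 76.8 in every library. Trdc, Tcrg-V4, Tcrg-C1 and Tcrg-C4 were listed at 0 in all 12. Tcrg-C2 was above 0 in every library. Cd3d, Cd3e, Cd3g and Cd247 were each at 0 in some libraries and reached 37.6, 24.6, 11.7 and 15.8. Of the 9 natural killer cell markers, Ncr1 and Klrb1c among them, 0 were above 0 in any library. Of the 9 B cell markers 8 were at 0 throughout, and the other reached 1.46 in 1 library. Tcrb, on the list of alpha beta T cell markers, stood at 57.4 to 103 and made up most of that list's sum in every library. Of the other 9 alpha beta T cell markers, Tcra was above 0 in 11 libraries (up to 14.2), Cd8b1 reached 17.3 and Cd8a 2.60, and 6, Trac, Cd4 and Foxp3 among them, were at 0 throughout. The 10 markers summed to 84.6 to 90.4 in NF-kB1-deficient imiquimod, 60.6 to 85.4 in wild-type imiquimod, 88.0 to 109 in NF-kB1-deficient sham and 78.6 to 110.1 in wild-type sham libraries, and their part in the results below was not tested.

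Only Cd27, Ccl5 and Nkg7 passed the filter of a mean value of at least 5 over the 12 libraries. The other 7 members, from Klrd1 at a mean of 4.78 down to Xcl1 at 0.270, did not, and entered no test unless the filter was lifted. The label of the list as a type 1 cytotoxic program therefore rests on few reads. Cd27 and Nkg7 were above 0 in all 12 libraries, and Ccl5 in 11. Klrd1 and Eomes were above 0 in 8, Gzmb in 4, Cxcr3 in 3, Tbx21 in 2, and Ifng and Xcl1 in 1 each. The number of members above 0 ran from 5 to 7 in NF-kB1-deficient imiquimod libraries, from 3 to 6 in wild-type imiquimod, from 4 to 7 in NF-kB1-deficient sham and from 4 to 5 in wild-type sham libraries.

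Cd27 (Entrez 21940) is a protein-coding gene on the minus strand of GRCm38 chromosome 6, from 125232622 to 125237010, and was the most abundant member on average. Its normalized values were 19.4, 76.1 and 21.1 in NF-kB1-deficient imiquimod libraries and 4.19, 6.32 and 3.96 in wild-type imiquimod libraries. Under sham cream they were 27.6, 23.5 and 18.2 in NF-kB1-deficient libraries and 64.3, 32.7 and 34.2 in wild-type libraries. The wild-type imiquimod libraries were below all 9 others, and their values amount to only 4, 6 and 2 reads. Among the other groups, NF-kB1-deficient sham lay wholly below wild-type sham, while NF-kB1-deficient imiquimod overlapped both. Cd27 lies inside the span of Vamp1 on the other strand, but the annotated exons share 0 bases. Vamp1 reached at most 5.15 in any library.

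**Figure D1:**
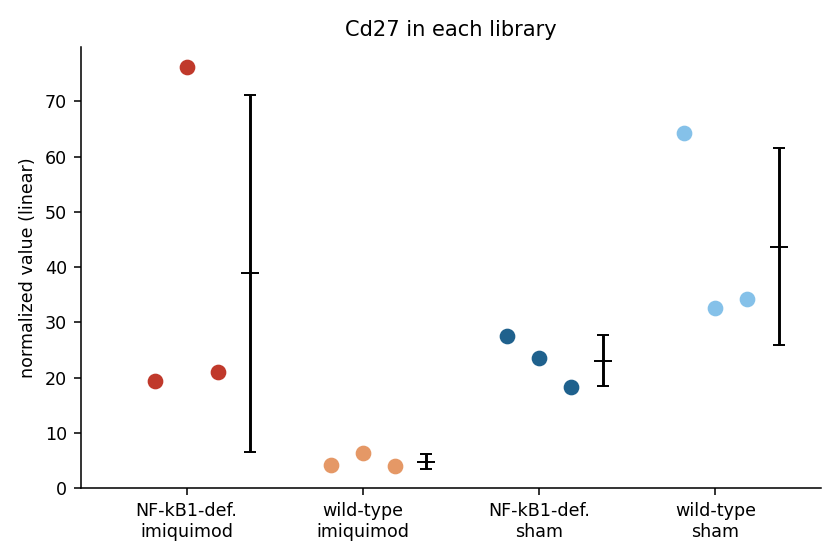
Cd27 as linear normalized value (y axis) in each library (points, 3 per group), with the group mean (tick) and SD (bar) to the right. The 3 wild-type imiquimod libraries sit between 3.96 and 6.32, below every other library, and 1 NF-kB1-deficient imiquimod library stands at 76.1.

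In wild-type cells Cd27 fell with imiquimod, to 4.82 ± 1.30 in imiquimod libraries against 43.7 ± 17.9 in sham libraries (mean ± SD, n = 3 each). The log2 fold change of value + 1 was -2.89 ± 0.66 (SE), with a limma adjusted p of 0.00274 over the 1571 genes tested. It was the only member called of the 3 tested, where 3.25% of all tested genes were called, and by p it ranked 11 of 1571. Its groups did not overlap, as was the case for 21.5% of tested genes. The call held whichever of the 12 libraries was left out (highest adjusted p 0.0487). It was lost with no filter (adjusted p = 0.0654) and without the trended, robust variance (adjusted p = 0.0596).

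In NF-kB1-deficient cells the same comparison gave no call for any of the 3 members tested (0% of all tested genes were called, and 53 of them reached an unadjusted p below 0.05). Groups overlapped for all 3 members, while they did not for 11.7% of tested genes. Cd27 was at 38.9 ± 32.3 in imiquimod libraries and 23.1 ± 4.67 in sham libraries (n = 3 each). The log2 fold change was 0.45 ± 0.66, with a 95% interval from -0.84 to 1.75 and a limma adjusted p of 0.996. Its sign rests on NF-kB1-deficient imiquimod replicate 2, without which it was -0.17.

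Under imiquimod, Cd27 was higher in NF-kB1-deficient than in wild-type cells. The log2 fold change was 2.51 ± 0.66 (95% interval 1.213 to 3.804; limma adjusted p = 0.0249), and all 3 NF-kB1-deficient libraries exceeded all 3 wild-type libraries. Cd27 was the only member called of 3, beside 1.78% of all tested genes, and groups did not overlap in 21.1% of tested genes. Without NF-kB1-deficient imiquimod replicate 2, the library at 76.1, the log2 fold change was 1.89 and not called (adjusted p = 0.398). The call was also lost with no filter (adjusted p = 0.410), without the trended, robust variance (adjusted p = 0.195) and with the 6 imiquimod libraries fitted alone (adjusted p = 0.103).

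Under sham cream Cd27 was not called between genotypes, although its groups did not overlap. The log2 fold change of NF-kB1-deficient over wild-type cells was -0.84 ± 0.66 (95% interval -2.14 to 0.46; limma adjusted p = 0.947). Here limma called 0% of tested genes, although 96 reached an unadjusted p below 0.05, and 9.36% of tested genes had groups that did not overlap.

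The difference between both imiquimod responses of Cd27 (NF-kB1-deficient minus wild type) was 3.35 ± 0.93 on the log2 scale, with a 95% interval from 1.52 to 5.18. It was not called at a limma adjusted p of 0.0813, where 0.446% of tested genes were called. The difference was called with equal library totals (adjusted p = 0.0363), with a mean of at least 20 (adjusted p = 0.0230) and without wild-type imiquimod replicate 2 (adjusted p = 0.0334). Equal totals shift the median of all tested genes by -0.12 in the wild-type imiquimod comparison, by 0.18 between genotypes under imiquimod and by 0.15 in the difference of responses. These 2 imiquimod comparisons and the genotype comparisons share libraries, so their values are not independent of each other.

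Promoter sequence was taken from RefSeq on GRCm38.p6, in which 8 of 10 members had an entry, and the 250 bases before the RefSeq start were searched on both strands. Cd27 is shown because it alone was called, and Nkg7 because it is the other tested member with an entry. Capitals mark matches to the T-box letters GGTGTGA or the Runx letters TGTGGT, or their reverse complements. Cd27 spans chr6:125237028-125237277 on the minus strand and Nkg7 spans chr7:43436888-43437137 on the plus strand.
Cd27: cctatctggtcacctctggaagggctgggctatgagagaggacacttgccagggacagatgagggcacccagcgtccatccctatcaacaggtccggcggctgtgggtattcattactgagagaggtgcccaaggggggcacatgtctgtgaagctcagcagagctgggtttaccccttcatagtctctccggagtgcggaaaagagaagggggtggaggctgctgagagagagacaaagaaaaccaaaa
Nkg7: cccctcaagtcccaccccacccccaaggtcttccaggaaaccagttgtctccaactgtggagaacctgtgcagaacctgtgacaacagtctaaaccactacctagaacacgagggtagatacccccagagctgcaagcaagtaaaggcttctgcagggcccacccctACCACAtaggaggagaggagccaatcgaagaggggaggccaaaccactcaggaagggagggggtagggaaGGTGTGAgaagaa
These letters and the NF-kB consensus had no match in the Cd27 window. Nkg7 had a T-box match 13 to 7 bases before the RefSeq start and a Runx match 83 to 78 bases before it. The gene spans given here are those of GENCODE M21, whose starts can differ from RefSeq. By GENCODE the last 65 bases of the Nkg7 window, with the T-box match, lie inside the gene, and the Runx match lies before it. The windows of Cxcr3 (122 bases, with its Runx match) and Xcl1 (5 bases, with no match) also reach into the GENCODE gene. Among the 8 member promoters the T-box letters occurred in Xcl1 and Nkg7 and the Runx letters in Xcl1, Nkg7, Gzmb and Cxcr3, while the NF-kB consensus occurred in 0. Over all 32851 promoter windows of this length the shares were 3.33% for T-box, 14.1% for Runx and 7.25% for NF-kB.

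The transcription factor transcripts were sparse. Eomes (Entrez 13813; chromosome 9, 118478212 to 118486132) was at 2.504, 10.5 and 0 in NF-kB1-deficient imiquimod and at 1.05, 0 and 1.98 in wild-type imiquimod libraries. In sham libraries it was at 3.68, 0 and 8.81 in NF-kB1-deficient and at 0, 5.27 and 7.45 in wild-type cells. Every group held a library at 0, and all groups overlapped. Tbx21, which encodes T-bet (Entrez 57765; chromosome 11, 97098071 to 97115331), was listed at 0 in all 6 wild-type libraries. It was above 0 only in NF-kB1-deficient imiquimod replicate 2, at 5.59, and in NF-kB1-deficient sham replicate 1, at 2.94.

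Ifng, the gene for interferon-gamma (Entrez 15978; chromosome 10, 118441046 to 118445892), was above 0 in a single library. Wild-type imiquimod replicate 3 had 15.8, which is 8 reads in the shallowest library, and the other 11 libraries were listed at 0. That library also held Cxcr3 at 2.97 and had Cd27 at 3.96.

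Of the granule genes, Nkg7 passed the filter and Gzmb did not. Nkg7, a membrane protein of cytotoxic granules (Entrez 72310; chromosome 7, 43437073 to 43438249), was at 17.4, 18.9 and 19.3 in NF-kB1-deficient imiquimod and at 1.05, 9.47 and 3.96 in wild-type imiquimod libraries. In sham libraries it was at 18.4, 53.4 and 5.03 in NF-kB1-deficient and at 5.59, 9.76 and 2.48 in wild-type cells. Under imiquimod the genotypes did not overlap, as in 21.1% of tested genes, and under sham they did. The genotype difference under imiquimod was 2.04 ± 0.99 on the log2 scale (95% interval 0.10 to 3.99) and was not called (unadjusted p = 0.0398, limma adjusted p = 0.313). Under sham it was 1.56 ± 0.99, with a limma adjusted p of 0.931. The imiquimod response was -0.40 ± 0.99 in wild-type cells (adjusted p = 0.859) and 0.07 ± 0.99 in NF-kB1-deficient cells (adjusted p = 0.996) by the same limma fit. Gzmb, granzyme B (Entrez 14939; chromosome 14, 56258838 to 56262260), was at 3.004, 2.79 and 1.30 in NF-kB1-deficient imiquimod libraries, which is 6, 4 and 2 reads. It was at 0, 1.05 and 0 in wild-type imiquimod libraries and listed at 0 in all 6 sham libraries. NF-kB1-deficient imiquimod libraries were thus above every other library, but the margin is 2 reads at 1.30 against 1 read at 1.05. Among the libraries they are compared with, 1 read can hide below the table's lowest value in NF-kB1-deficient sham replicate 1. In wild-type sham replicate 2, where 1 read was worth 0.488, as many as 2 reads can hide. Depth also differed, with an estimated 45957 to 67043 reads in NF-kB1-deficient imiquimod and 20507 to 35611 in wild-type imiquimod libraries.

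Klrd1 encodes CD94, the partner chain of NKG2 receptors (Entrez 16643; chromosome 6, 129591782 to 129598775). It was at 8.51, 5.59 and 0 in NF-kB1-deficient imiquimod libraries and listed at 0 in the 3 wild-type imiquimod libraries. Sham libraries had 7.35, 7.66 and 10.1 in NF-kB1-deficient and 2.24, 12.2 and 3.73 in wild-type cells. Wild-type imiquimod was the only group with every library at 0. Each read there was worth over 1, so the lower end of the table hides no whole read, though it could hide part of a read. With no filter, Klrd1 had an unadjusted p of 0.0383 and a limma adjusted p of 0.696 for imiquimod over sham in wild-type cells.

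Among the chemokines and their receptors, Ccl5 was the abundant member. Ccl5, which attracts T cells and monocytes (Entrez 20304; chromosome 11, 83525778 to 83530518), was at 17.5, 21.7 and 5.84 in NF-kB1-deficient imiquimod and at 15.7, 0 and 3.96 in wild-type imiquimod libraries. In sham libraries it was at 14.0, 33.4 and 20.1 in NF-kB1-deficient and at 19.6, 23.4 and 15.5 in wild-type cells. The wild-type imiquimod range reached just into that of wild-type sham. The log2 fold change between them was -2.21 ± 0.89 (95% interval -3.96 to -0.47) and was not called (unadjusted p = 0.0135, limma adjusted p = 0.133). Over the alternatives it ran from -3.38 to -0.94, called in 0 of 19. The genotype difference of Ccl5 under imiquimod was 1.70 ± 0.89 (limma adjusted p = 0.362), and its other 2 pairwise comparisons had adjusted p of 0.995 and 0.996 in that fit. Xcl1, a chemokine for cross-presenting dendritic cells (Entrez 16963; chromosome 1, 164931644 to 164935527), was above 0 only in NF-kB1-deficient imiquimod replicate 3, at 3.24. Cxcr3, a receptor for interferon-induced chemokines (Entrez 12766; chromosome X, 101731535 to 101734269), had values of 2.94, 0 and 6.29 in the NF-kB1-deficient sham group and 2.97 in wild-type imiquimod replicate 3. It was listed at 0 elsewhere.

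**Figure D2:**
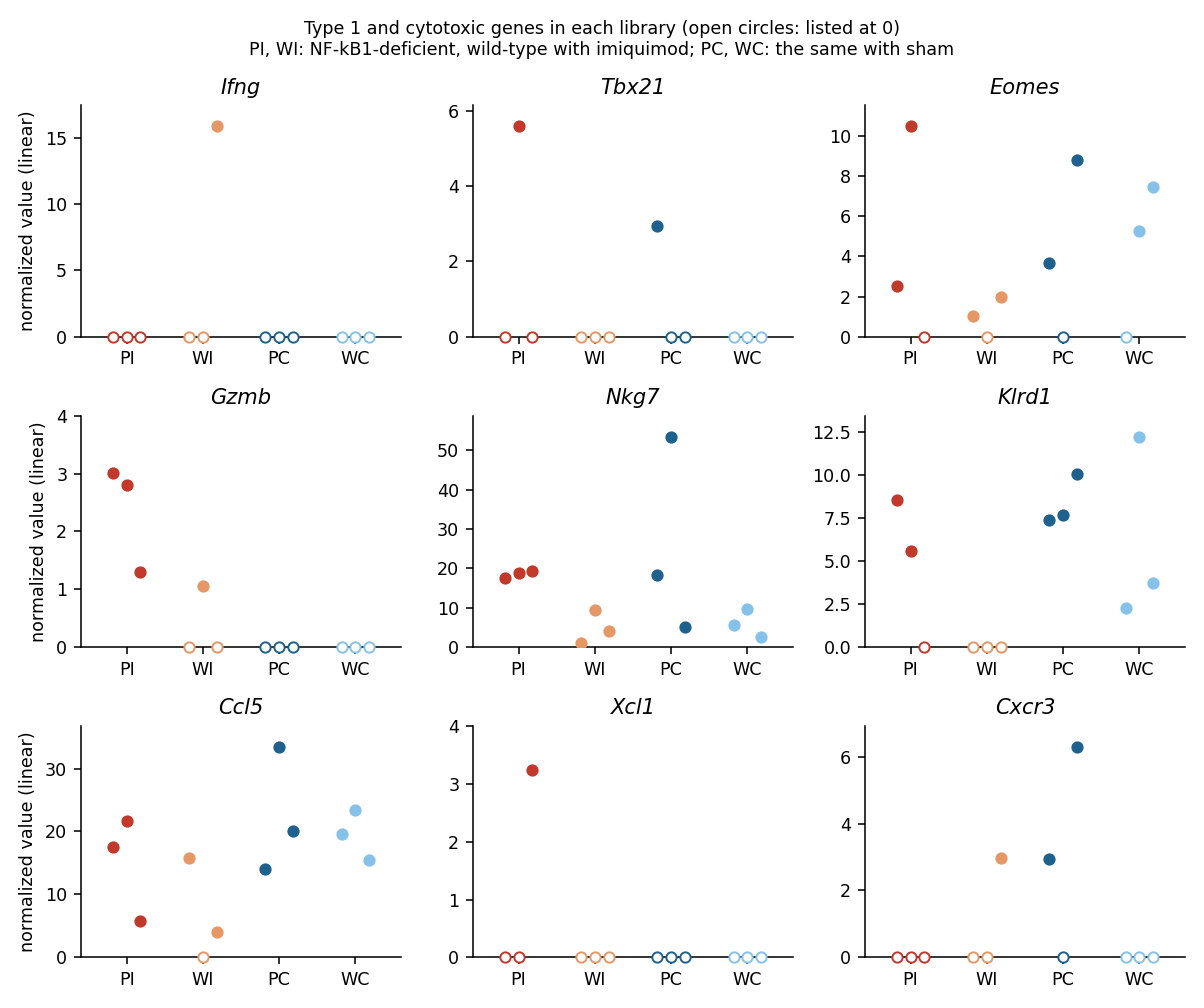
Normalized values (y axes, linear, scaled per gene) of the 9 members other than Cd27 in each library, with the groups NF-kB1-deficient imiquimod (PI), wild-type imiquimod (WI), NF-kB1-deficient sham (PC) and wild-type sham (WC). Open circles are libraries listed at 0. Klrd1 is at 0 in all 3 wild-type imiquimod libraries, and Ifng is above 0 in 1 library.

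Without a filter on low values, the 7 sparse members gave 35 tests over the 5 comparisons, of which 2 had an unadjusted p under 0.05, and the lowest limma adjusted p was 0.696. The summed value of the members without Cd27 was 49.0, 64.97 and 29.7 in NF-kB1-deficient imiquimod and 17.8, 10.5 and 28.7 in wild-type imiquimod libraries. In sham libraries it was 49.3, 94.5 and 50.3 in NF-kB1-deficient and 27.4, 50.7 and 29.2 in wild-type cells. The wild-type imiquimod sums lay below those of both NF-kB1-deficient groups and overlapped those of wild-type sham. All 3 tested members had negative fold changes in wild-type cells (median -2.21), beside 815 of 1571 tested genes (median -0.07). Between genotypes under imiquimod all 3 were positive (median 2.04), beside 844 of 1571 genes (median 0.14). In bulk libraries, fewer cells of a type and less RNA per cell cannot be told apart.

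**Figure D3:**
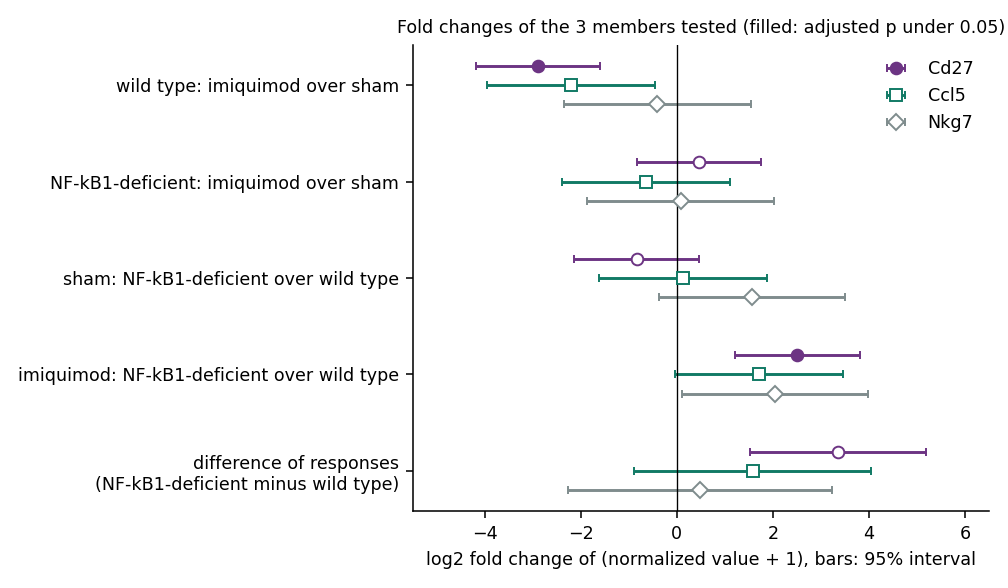
Log2 fold changes of value + 1 (x axis) for Cd27, Ccl5 and Nkg7 in the 5 comparisons (y axis), with 95% limma intervals as bars. Only Cd27 is filled, in wild-type cells at -2.89 and between genotypes under imiquimod at 2.51.

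The genes whose pattern over the 12 libraries was most like that of Cd27, by Pearson correlation of log2(value + 1), were Btg1 (0.90), Malat1 (0.88), Acss1 (0.86), Ms4a4b (0.86) and Cyb5b (0.85). These are the 5 highest among 1571 genes and are a description, since libraries of a group share their treatment and the depths differ. Btg1, an antiproliferative gene, ran from 36.7 to 47.4 in NF-kB1-deficient imiquimod and from 4.72 to 7.37 in wild-type imiquimod libraries. Under sham it ran from 16.4 to 32.3 in NF-kB1-deficient and from 36.6 to 64.3 in wild-type libraries. Acss1 and Cyb5b were at most 1.05 and 1.98 in wild-type imiquimod libraries. The most opposite patterns were those of Gspt1 (-0.93), Nucks1 (-0.92) and Stmn1 (-0.91). Stmn1, which encodes the tubulin-binding protein stathmin, ran from 14.0 to 52.5 in wild-type imiquimod libraries and reached at most 3.25 in the other 9. Among the members, the correlation with Cd27 ran from 0.64 (Klrd1) and 0.58 (Ccl5) to -0.51 (Ifng), and with so many zeros these values say little.

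**Figure D4:**
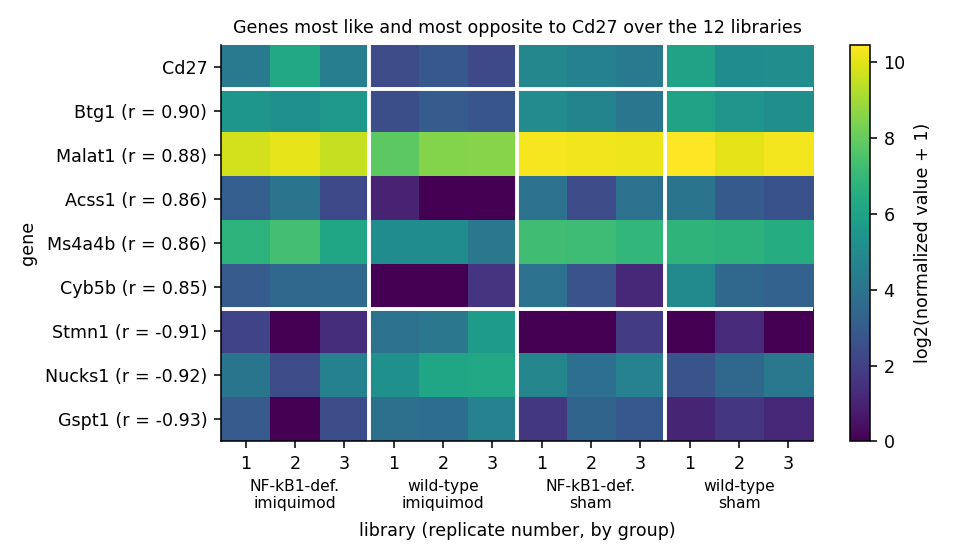
Log2(normalized value + 1) as colour for Cd27, the 5 genes most like it and the 3 most opposite to it (rows, with Pearson r over 12 libraries) in each library (columns, by group and replicate). The 3 wild-type imiquimod columns hold the lowest values of Cd27, Btg1, Malat1, Acss1 and Ms4a4b, and the highest of Stmn1, Nucks1 and Gspt1.

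Genes that induce or sense interferon-gamma had 6 of 17 tested, and 0 were called in wild-type cells with imiquimod. There all 6 fold changes were negative (median -1.65), beside 815 of 1571 tested genes (median -0.07). In NF-kB1-deficient cells 5 of 6 were positive (median 0.44, 0 called), beside 880 of 1571 tested genes (median 0.14). Between genotypes under imiquimod 4 of 6 were positive (median 1.51), beside 844 of 1571 tested genes (median 0.14). Irf1, an interferon-induced transcription factor, was at 31.5, 21.7 and 16.2 in NF-kB1-deficient and at 2.10, 7.37 and 1.98 in wild-type imiquimod libraries. These did not overlap, as in 21.1% of tested genes, and Irf1 was not called (log2 fold change 2.45 ± 0.82, limma adjusted p = 0.107). Runx3, a partner of T-bet in type 1 cells, overlapped between all groups, from 10.1 to 120.5. Il12rb2, Hlx and Bhlhe40 were listed at 0 in all 12 libraries.

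Genes that go with naive-like CD27+ lymphocytes had 9 of 12 tested. In wild-type cells 8 of 9 had negative fold changes with imiquimod (median -1.82, 0 called), beside 815 of 1571 tested genes. In NF-kB1-deficient cells 6 of 9 did (median -0.53, 0 called), beside 691 of 1571 tested genes. Between genotypes under imiquimod all 9 were positive (median 1.63), beside 844 of 1571 tested genes (median 0.14). Foxp1 was called, where 1.78% of all tested genes were called. Foxp1, a factor of T cell quiescence, was at 28.8, 40.8 and 39.9 in NF-kB1-deficient and at 1.05, 13.7 and 16.8 in wild-type imiquimod libraries (log2 fold change 2.19 ± 0.62, limma adjusted p = 0.0424). That call was kept in 9 of 20 alternatives. It was lost with a pseudocount of 0.1 (limma adjusted p = 0.06535) or 10 (0.0785) and with no filter (0.617). The same held without trend and robust (0.296) and with the 6 imiquimod libraries alone (0.135). Among libraries left out, the call was lost without wild-type imiquimod replicate 1 (log2 fold change 1.20, adjusted p = 0.371). It was also lost without any of the 3 NF-kB1-deficient imiquimod libraries (adjusted p = 0.0871 to 0.319). Leaving out NF-kB1-deficient sham replicate 1 (0.0653) or wild-type sham replicate 2 (0.0615) lost it too. Klf2 and S1pr1, which serve lymphocyte exit from lymph nodes, were at 18.2 to 40.5 and 13.1 to 25.3 in NF-kB1-deficient imiquimod libraries and at 17.8 to 41.6 and 0 to 22.1 in wild-type imiquimod libraries, and overlapped.

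Of the 13 genes of the CD27 signalling list 12 were above 0 in some library, and only Pim1, a kinase that supports survival, was tested. The list summed to 20.9 to 35.5 in NF-kB1-deficient imiquimod, 8.82 to 66.6 in wild-type imiquimod, 26.2 to 32.4 in NF-kB1-deficient sham and 20.2 to 33.8 in wild-type sham libraries, and all groups overlapped. Pim1 was at 14.9, 26.1 and 20.1 in NF-kB1-deficient and at 2.53, 15.8 and 25.7 in wild-type imiquimod libraries, and it was called in 0 comparisons. Cd70, the ligand, was listed at 0 in all 12 libraries. Cytotoxic granule genes had 2 of 16 tested and 0 called. Srgn, the granule proteoglycan, was at 10.5, 8.03 and 13.6 in NF-kB1-deficient and at 1.05, 5.79 and 5.94 in wild-type imiquimod libraries, without overlap, while both sham groups overlapped. Rab27a, a granule docking GTPase, was at 7.51, 2.10 and 3.24 in NF-kB1-deficient and at 11.5, 11.6 and 17.8 in wild-type imiquimod libraries, without overlap. Between genotypes under imiquimod, groups did not overlap in 21.1% of tested genes. Under sham Rab27a stood at 5.15, 0 and 0 in NF-kB1-deficient and at 22.4, 14.6 and 4.97 in wild-type libraries, which overlapped. Fasl, Gzmc, Gzmk and Gzmm were listed at 0 throughout. Of 8 type 1 chemokine genes only Cxcr6, a receptor of tissue-homing T cells, was tested, with 0 calls, and its groups ran from 0 to 9.08 in NF-kB1-deficient and from 6.32 to 36.7 in wild-type imiquimod libraries. Natural killer receptors had 0 of 14 tested, and 6 of them, Klrg1 included, were at 0 in all 12 libraries.

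The IL-17 list holds genes of gamma delta T cells that in mice lack CD27. With imiquimod it summed to 41.6, 18.2 and 40.3 in NF-kB1-deficient libraries, against 87.1, 109 and 93.1 in wild-type libraries. In sham libraries it summed to 42.9, 33.9 and 16.7 in NF-kB1-deficient and to 35.8, 62.9 and 54.7 in wild-type cells. The wild-type imiquimod sums were above those of every other library with Cd44 counted, and not without it. Without Cd44, wild-type imiquimod libraries had 68.0, 86.8 and 39.6, against 34.7, 54.8 and 54.7 in wild-type sham libraries, which overlap. Of 19 genes 16 were above 0 somewhere, 3 were tested and 0 were called in any comparison. Cd44, an adhesion receptor of activated and memory cells, was at 6.51, 0 and 8.43 in NF-kB1-deficient and at 19.1, 22.1 and 53.5 in wild-type imiquimod libraries. These did not overlap, as in 21.1% of tested genes. Cd163l1 (15.8 at the median) and Maf (12.6) overlapped the other groups in wild-type imiquimod libraries. Il17f, an IL-17 cytokine gene, was at 5.51, 0 and 5.51 in NF-kB1-deficient and at 0, 6.32 and 33.7 in wild-type imiquimod libraries, and was listed at 0 in all 6 sham libraries. Il17a, Il22 and Il1r1 were listed at 0 in all 12. The part of a changed mixture of cells in the Cd27 difference was not tested.

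The delta chain locus Tcrd, used in these cells, was low in the same libraries as Cd27. It was at 62.8, 53.5 and 58.9 in NF-kB1-deficient and at 14.2, 30.5 and 19.8 in wild-type imiquimod libraries. Sham libraries had 72.8, 66.1 and 40.3 in NF-kB1-deficient and 65.8, 68.7 and 76.8 in wild-type cells. In wild-type cells it fell with imiquimod by 1.73 ± 0.43 on the log2 scale (limma adjusted p = 0.00905). The call was kept in 15 of 20 alternatives, and among libraries left out it was lost without wild-type imiquimod replicate 1 (adjusted p = 0.0611) or wild-type sham replicate 3 (adjusted p = 0.0536). Of the 4 gamma delta T cell markers tested for imiquimod in wild-type cells, only Tcrd was called, where 3.25% of all tested genes were called. Tcrg-C2, a gamma chain gene, had a log2 fold change of 0.007 there (limma adjusted p = 0.997). It was at 12.3, 22.3 and 18.8 in imiquimod and at 10.5, 17.0 and 28.3 in sham libraries. Cd247 had -0.72 and Cd3d -2.45 (adjusted p = 0.797 and 0.154 in that fit). The part of Tcrd in the Cd27 result was not tested.

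**Figure D5:**
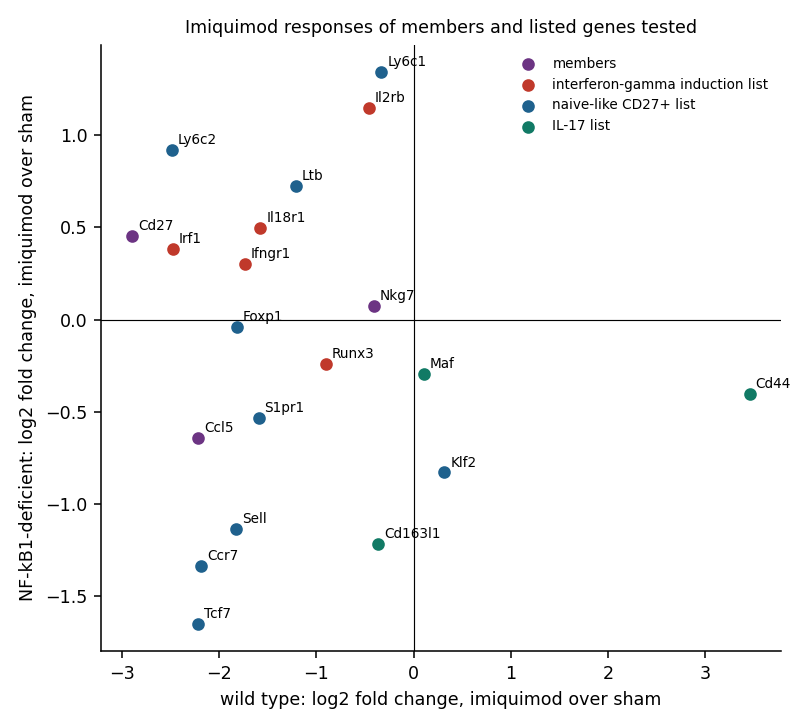
Log2 fold change with imiquimod over sham in wild-type cells (x axis) and in NF-kB1-deficient cells (y axis) for the 3 tested members and the tested genes of 3 lists that are reported here, coloured by list. Cd27 lies farthest left, at -2.89, and at 0.45 on the y axis.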

How the data were processed

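Trizol RNA went into QuantSeq 3' FWD libraries, per the labels' protocols. Per the submitters' processing notes the build is mm10. The sources used here name no aligner, counter, annotation or normalization tool. The authors deposited log2 normalized counts, which were taken back to the linear scale. With a 3' tag per transcript, values do not scale with transcript length.

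The value of 1 read was estimated from the steps of low values. Of values under 20 reads, 71.0% to 80.2% lay within 0.01 read of a whole number, so reads were not recovered and no count test was run.

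Tests used limma 3.58.1 in R 4.3.3 on log2(value + 1), which understates the change of low genes. Genes with a mean of at least 5 over the 12 libraries (1571) entered 1 fit with a coefficient per group, then eBayes with trend and robust (8 residual degrees of freedom, median prior 145). Benjamini-Hochberg adjustment ran over all 1571 genes in each of 5 comparisons, and calls were made at an adjusted p under 0.05. In the alternatives the gene set stayed fixed unless the filter itself was changed. The fit was tested on simulated data. All 12 columns matched titles (0 unused), and 0 of 66 library pairs were identical.

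The members and lists were chosen with earlier results of these data known. Some genes of the lists, called ones included, are not reported here, though they stay in the fit and in the list counts and medians. Named genes are the 10 members, called genes of the other lists, the 3 most abundant tested genes of each list, and the 5 most like and 3 most opposite to Cd27. Genes named because they were listed at 0 were chosen after their values were seen, as were Il17f, the named cell markers and the sum of the IL-17 list without Cd44. Positions come from GENCODE M21 on GRCm38, matched by symbol.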

Additional observations from a re-analysis of the deposited data

How the results depend on the processing

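The fold of Cd27 kept its direction in wild-type cells, between genotypes in either treatment and in the difference of responses under each alternative run. A pseudocount of 10 shrank it to -1.81 in wild-type cells and to 1.53 between genotypes under imiquimod, both called. In wild-type cells 18 of 20 alternatives kept the call. It was lost with no filter and without trend and robust (log2 fold change -2.89 in both; adjusted p = 0.0654 and 0.0596), leaving 0 members called. Between genotypes under imiquimod, 16 of 20 kept it. It was lost with no filter, without trend and robust and with the 6 libraries alone (2.51 in each; 0 members called), and without single libraries the fold ran from 1.89 to 2.85 with 0 to 1 members called. The difference of responses was called with a mean of at least 20 (3.35) and with equal totals (3.51), with 1 member called in each, and without single libraries it ran from 2.73 to 3.69 with 0 to 1 members called. In NF-kB1-deficient cells leaving out single libraries gave -0.17 to 0.79 for Cd27 and -0.74 to 0.85 for Nkg7, and a pseudocount of 10 gave -0.074 for Nkg7. For uncalled folds that changed sign without a library, Nkg7 ran from -0.98 to 0.20 in wild-type cells and from -0.33 to 1.26 in the difference of responses, and Ccl5 from -0.19 to 0.41 between genotypes under sham. The causes were not tested. Fitting without trend or filter widens the SE of Cd27 to 0.73 and 0.75.

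Counts over all genes depended on the settings. In wild-type cells 51 were called, against 26 with a pseudocount of 0.1, 11 with no filter, 18 without trend and robust, 28 with the 6 libraries alone and 23 to 72 without single libraries. Between genotypes under imiquimod 28 were called, against 18, 3, 0 and 17 in the same settings and 4 to 42 without single libraries. The difference of responses had 7, against 1 with no filter, 0 without trend and robust, 13 with a mean of at least 20 and 2 to 12 without single libraries. NF-kB1-deficient cells had 1 with the 6 libraries alone.

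With the replicate number as a block, Cd27 had an adjusted p of 0.00177 in wild-type cells, 0.0177 between genotypes under imiquimod and 0.0707 for the difference of responses, and no call of a member changed. Nothing in the labels says whether the replicate numbers pair the libraries. Deviations of same-numbered libraries correlated at -0.01 to 0.06, with 0 of 18 pairs above 0.1, although 10 of 12 libraries were closest to their own number on average.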

Other observations

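Natural killer receptors were thin but spread differently over the libraries. Their 14 genes summed to 10.4 to 23.4 in NF-kB1-deficient imiquimod and to 0 to 6.32 in wild-type imiquimod libraries, and to 0 to 13.8 in NF-kB1-deficient sham and 0 to 41.0 in wild-type sham libraries. Of these, 7 genes were above 0 in NF-kB1-deficient imiquimod and 3 in wild-type imiquimod libraries, against 3 in NF-kB1-deficient sham and 4 in wild-type sham libraries. Cd160, chosen after its values were seen, was at 5.51, 11.5 and 0 in NF-kB1-deficient imiquimod and at 0, 0 and 3.96 in wild-type imiquimod libraries. Under sham Cd160 was at 0, 0 and 0 in NF-kB1-deficient and at 0, 3.905 and 4.97 in wild-type libraries. The differences were not tested, and NF-kB1-deficient imiquimod libraries were deeper, with an estimated 45957 to 67043 reads against 20507 to 35611 in wild-type imiquimod libraries.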
